A study of Arabidopsis thaliana with 14 samples.

Results

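LHCB4.1, LHCB4.2, LHCB4.3, PSAE-1 and PSBY are nuclear genes for antenna and subunit proteins of the 2 photosystems. They were followed in whole Arabidopsis thaliana seedlings on ATH1 arrays, short-oligonucleotide arrays in which each probe set reports 1 signal per hybridised RNA sample. The genes were taken as the probe sets that the array annotation gives to exactly 1 of these symbols. Each gene had 1 probe set, so the group holds 5 of the 22746 probe sets that are no controls, and 5 of the 13513 that the annotation gives to a single gene. By locus they are AT5G01530 (LHCB4.1), AT3G08940 (LHCB4.2), AT2G40100 (LHCB4.3), AT4G28750 (PSAE-1) and AT1G67740 (PSBY). All 5 passed the filter on low signals that kept 15922 probe sets.

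The 14 arrays fall into 7 groups of 2. All seedlings were wild type Col-0, 6 days after germination, grown at 22 °C in 16 h of light and 8 h of dark on 0.5x MS medium and moved to liquid 0.5x MS for 1 day before the experiment. Seedlings were collected 3 h and 12 h after compound 7606596 or compound 5929745 was added to 50 µM, at 3 h and 12 h without a compound, and at 0 h without a compound. The series title calls the treatment an albino chemical, and both compounds are known here by code name only. The labels do not say whether untreated seedlings received solvent or at which clock hour any group was collected, so times are hours after the addition. They speak of independent sets of arrays but not of separate cultures, so the p-values measure the spread between these samples, which may be technical.

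Light-harvesting proteins bind chlorophyll and pass excitation energy to the reaction centres of photosystem I and photosystem II in the thylakoid membrane of the chloroplast. LHCB4 is a minor, monomeric antenna protein that links the outer trimeric antenna to the photosystem II core. PSAE-1 encodes the E subunit on the stromal side of photosystem I, near the site where ferredoxin docks, and PSBY encodes small membrane polypeptides of photosystem II. The nucleus encodes all of these proteins and the chloroplast imports them. Transcripts of antenna genes in plants are known to follow light and the circadian clock.

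Replicate arrays of a group correlated at 0.983 to 0.989 over the probe sets, no 2 arrays held identical values, and array medians ran between 151.9 and 168.6 signal units. The poly-A controls are RNAs meant to be added to the sample before labelling. Their probe sets set the 4 untreated arrays of 3 h and 12 h apart from the other 10. The 3′ dap control read 429 to 544 on those 4 arrays and 133 to 217 on the 10. The readings on the 10 lie around the array medians, and whether the RNAs were added to these samples was not tested. The actin 3′ to 5′ ratio was 7.29 to 9.22 on the 4 arrays and 10.5 to 16.3 on the 10. The GAPDH 3′ to 5′ ratio overlapped, with 1.39 to 1.65 on the 4 arrays and 1.09 to 1.52 on the 10. Every comparison of a compound with untreated seedlings crosses the differences in poly-A controls and actin ratio. So does every comparison of untreated seedlings at 3 h or 12 h with 0 h. Comparisons between 12 h and 3 h within a treatment, and of treated seedlings with 0 h, do not. The hybridization controls, added after labelling, differed along other lines, with a mean log2 signal of 11.18 to 11.21 at 0 h, 10.81 to 10.98 on all treated arrays and the untreated arrays of 3 h, and 10.45 to 10.51 on the untreated arrays of 12 h. Comparisons with 0 h, and those that use untreated seedlings at 12 h, cross these levels, whose part in the results was not tested.

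LHCB4.2 had 28779 and 27980 signal units on the 2 untreated arrays at 0 h. At 3 h it had 24603 and 25319 with 7606596, 26188 and 24801 with 5929745, and 25066 and 28098 without a compound. At 12 h it had 6711 and 5556 with 7606596, 6106 and 7026 with 5929745, and 6248 and 6463 without a compound. The 6 arrays at 12 h lay far below the other 8, with no overlap, and the 3 treatments overlapped one another at 12 h. The 12 h arrays ran between 5556 and 7026 with a median of 6356, and the 3 h arrays between 24603 and 28098 with a median of 25192. Among the probe sets of an array LHCB4.2 took places 21 to 36 by brightness at 3 h and 24 to 28 at 0 h, and places 372 to 515 at 12 h.

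LHCB4.2 fell between 12 h and 3 h in each treatment, with a log2 change of -2.03 ± 0.11 (SE) with 7606596, -1.96 ± 0.11 with 5929745 and -2.06 ± 0.11 without a compound. These are 4.08-fold, 3.88-fold and 4.17-fold lower levels at 12 h. The adjusted p-values, from limma across all 15922 kept probe sets, were 1.47e-10, 2.8e-10 and 9.59e-11. Of the 15922 probe sets, 75, 71 and 71 had a lower log2 change than LHCB4.2 with 7606596, with 5929745 and without a compound.

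LHCB4.1 had 31958 and 30127 signal units at 0 h. At 3 h it had 30922 and 32996 with 7606596, 32362 and 30433 with 5929745, and 32733 and 35266 without a compound. At 12 h it had 19888 and 19364 with 7606596, 20626 and 21311 with 5929745, and 20829 and 18298 without a compound. The 12 h arrays again lay below all 3 h and 0 h arrays, while the 0 h and 3 h arrays overlapped. LHCB4.1 was among the brightest probe sets throughout, at places 7 to 12 at 3 h and 26 to 39 at 12 h. It fell between 12 h and 3 h, with a log2 change of -0.70 ± 0.10 with 7606596 (limma adjusted p = 2.6e-05), -0.58 ± 0.10 with 5929745 (0.000202) and -0.80 ± 0.10 without a compound (4.78e-06). The levels at 12 h were 1.63-fold, 1.5-fold and 1.74-fold lower, in that order of treatments.

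LHCB4.3, a divergent member of the family, had 219 and 206 signal units at 0 h. At 3 h it had 159 and 208 with 7606596, 205 and 187 with 5929745, and 163 and 183 without a compound. At 12 h it had 193 and 208 with 7606596, 159 and 162 with 5929745, and 157 and 237 without a compound. The ranges of all 3 times overlapped, and the untreated pair at 12 h alone spanned the whole range of the gene. LHCB4.3 took places 9875 to 11680 by brightness among 22746 probe sets, near the middle of an array. How far its signal stands above background was not tested. Its log2 change between 12 h and 3 h was 0.13 with 7606596 (95% interval -0.26 to 0.52), -0.27 with 5929745 (-0.66 to 0.13) and 0.15 without a compound (-0.25 to 0.54). None of the 3 passed the test (limma adjusted p = 0.671, 0.332 and 0.589). The intervals exclude a change as large as that of LHCB4.2.

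**Figure D1:**
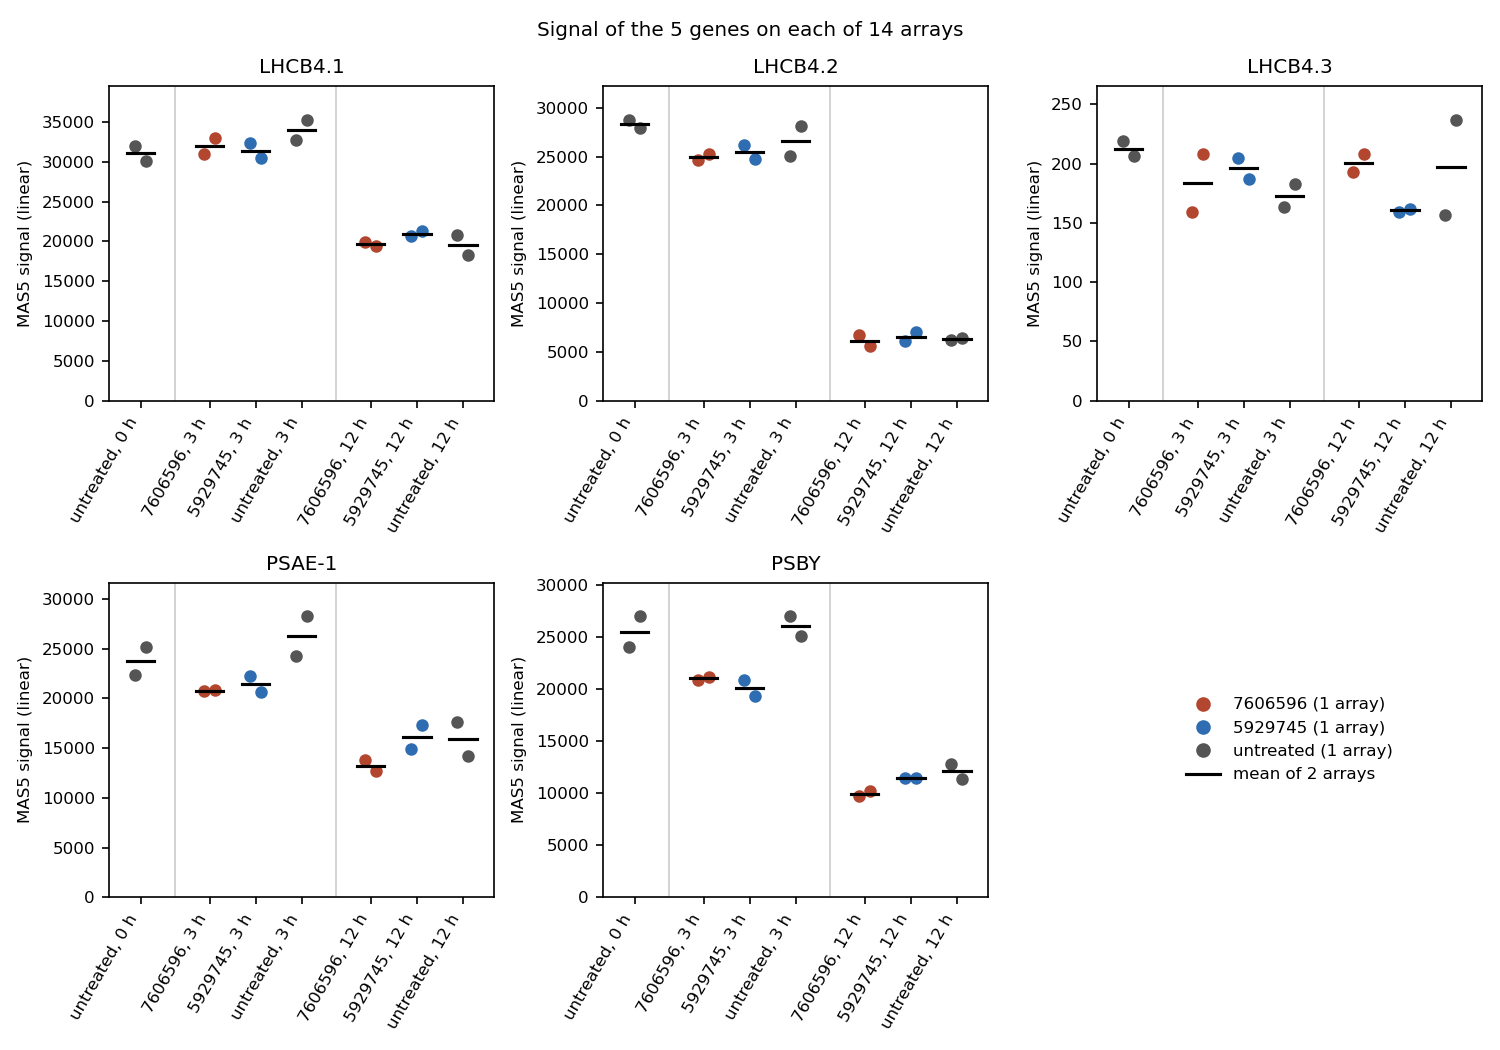
Signal of the 5 genes on each array, in linear MAS5 units from 0, against group, with untreated seedlings at 0 h on the left, the groups of 3 h in the middle and those of 12 h on the right. Points are single arrays and lines are means of 2; the 12 h arrays of LHCB4.2 sit between 5556 and 7026 and all 3 h arrays of it between 24603 and 28098, while LHCB4.3 overlaps between all times.

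The question of how the LHCB4 paralogs differ over the hours was put to the ratio of their signals within each array. Levels of different probe sets cannot be set against each other. Changes of their ratio can be compared only as far as the probe sets respond alike at their different signal levels, which was not tested. The log2 ratio of LHCB4.2 over LHCB4.1 was -0.15 and -0.11 at 0 h. At 3 h it lay between -0.38 and -0.30 on the 6 arrays, and at 12 h between -1.80 and -1.50. The 3 times did not overlap. The change between 12 h and 3 h was -1.33 with 7606596, -1.38 with 5929745 and -1.26 without a compound, a mean of -1.32 and a 2.5-fold lower ratio. The signal of LHCB4.2 thus fell more than that of LHCB4.1 in each treatment.

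The ratio of LHCB4.2 over LHCB4.3 changed by -2.16, -1.69 and -2.21 with 7606596, with 5929745 and without a compound, a mean of -2.02. The ratio of LHCB4.1 over LHCB4.3 changed by -0.83, -0.32 and -0.95 in the same order, a mean of -0.70. A two-sided exact permutation test, with times permuted within each treatment over 12 arrays, gave p = 0.00926 for each of the 3 pairs, and 0.00926 after Benjamini-Hochberg adjustment over the 3. This is the smallest p that the 216 arrangements allow. The mean change of LHCB4.1 over LHCB4.3 was -0.33 after quantile normalization, less than the -0.70 above, with an adjusted p of 0.0185 in the same exact test. In the limma fit so normalized, LHCB4.1 and LHCB4.3 changed by -0.35 and -0.29 with 5929745, so they differed little there. Their changes were -0.34 and 0.11 with 7606596, and -0.38 and 0.10 without a compound. With the treated arrays alone the 3 mean changes were -1.35, -1.92 and -0.57, and the smallest p that such a test allows is 0.0556. How far each probe set also responds to the other paralogs' transcripts was not tested.

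**Figure D2:**
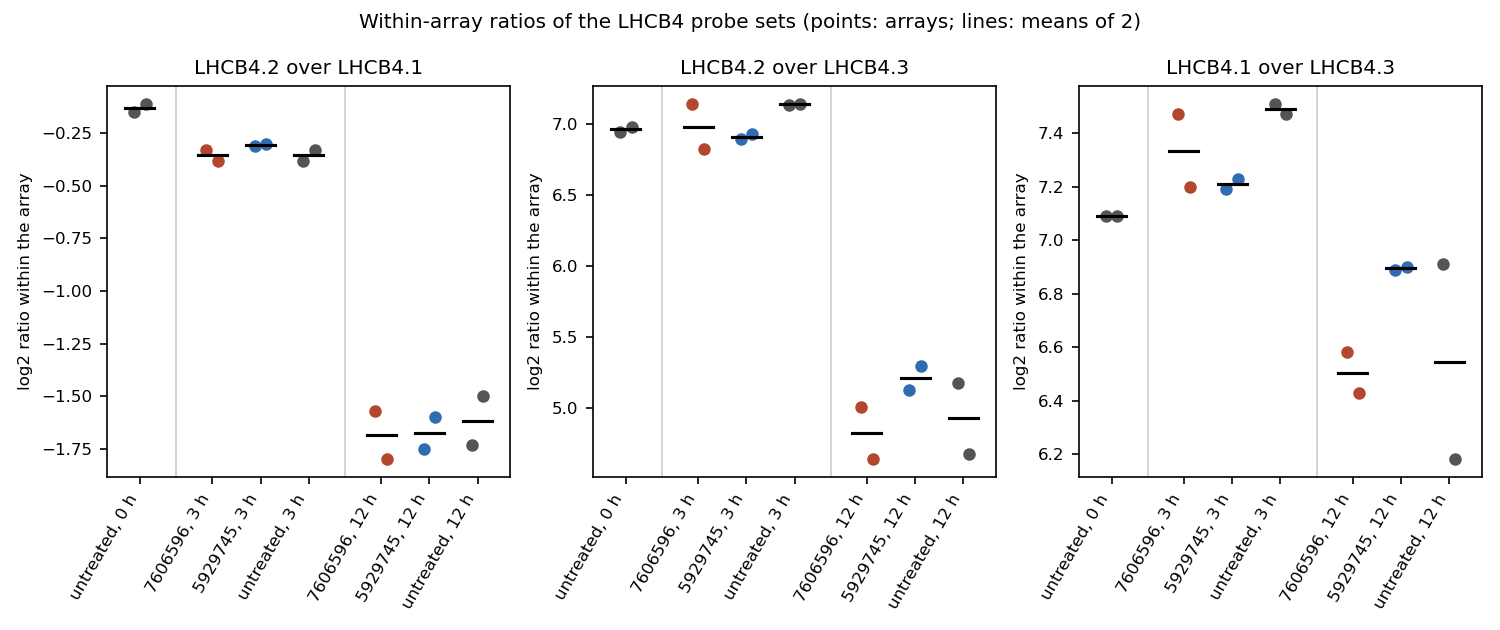
Log2 ratio of the signals of 2 LHCB4 probe sets within each array, against group, in 1 panel per pair; points are arrays and lines are means of 2. The ratio of LHCB4.2 over LHCB4.1 sits between -0.38 and -0.30 at 3 h and between -1.80 and -1.50 at 12 h in all 3 treatments.

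PSBY had 24004 and 26974 signal units at 0 h. At 3 h it had 20866 and 21140 with 7606596, 20815 and 19344 with 5929745, and 26958 and 25072 without a compound. At 12 h it had 9723 and 10169 with 7606596, 11447 and 11441 with 5929745, and 12776 and 11367 without a compound. All 12 h arrays lay below all others. At 3 h both treated groups lay below the untreated one with no overlap, but neither difference passed limma's test (adjusted p = 0.083 with 7606596 and 0.072 with 5929745). PSBY fell between 12 h and 3 h, with a log2 change of -1.08 ± 0.10 with 7606596 (limma adjusted p = 1.91e-07), -0.81 ± 0.10 with 5929745 (7.69e-06) and -1.11 ± 0.10 without a compound (1.19e-07). Of the 5 genes it had the second largest fall in each treatment, after LHCB4.2.

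PSAE-1 had 22388 and 25140 signal units at 0 h. At 3 h it had 20740 and 20798 with 7606596, 22302 and 20658 with 5929745, and 24257 and 28271 without a compound. At 12 h it had 13799 and 12687 with 7606596, 14932 and 17351 with 5929745, and 17657 and 14191 without a compound. The 12 h arrays lay below all 3 h arrays, with a smaller gap than for PSBY. PSAE-1 fell between 12 h and 3 h, with a log2 change of -0.65 ± 0.12 with 7606596 (limma adjusted p = 0.000477), -0.41 ± 0.12 with 5929745 (0.0157) and -0.73 ± 0.12 without a compound (0.000129). The call with 5929745 was lost without the first 5929745 array of 3 h (change -0.36, adjusted p = 0.114) or the first of 12 h (-0.31, 0.141). It was also lost under 3 other settings, among them quantile normalization (-0.18, 0.221).

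Ordered by group mean, LHCB4.1 and LHCB4.2 split into a high block of 0 h and 3 h groups and a low block of 12 h groups. LHCB4.1 averaged 31960 ± 1467 signal units with 7606596, 31398 ± 1364 with 5929745 and 33999 ± 1792 without a compound at 3 h, and 31043 ± 1295 at 0 h (SD, n = 2 each). Neighbours within this block overlapped. At 12 h LHCB4.1 averaged 19626 ± 371 with 7606596, 20968 ± 484 with 5929745 and 19564 ± 1789 without a compound. Here the 7606596 and untreated arrays overlapped, and the 5929745 arrays did not overlap those of 7606596. The difference between the compounds did not pass limma's test (adjusted p = 0.897).

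LHCB4.2 averaged 24961 ± 506 with 7606596, 25495 ± 980 with 5929745 and 26582 ± 2144 without a compound at 3 h, and 28380 ± 565 at 0 h. At 12 h it averaged 6134 ± 816 with 7606596, 6566 ± 651 with 5929745 and 6356 ± 152 without a compound. Neighbours in the order overlapped in both blocks, so the treatments could not be ranked within a time. LHCB4.3 averaged between 160 and 212 in the 7 groups, with 5929745 at 12 h lowest and 0 h highest, and neighbouring groups overlapped except that lowest one and untreated seedlings at 3 h.

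PSBY averaged 21003 ± 193 with 7606596, 20080 ± 1040 with 5929745 and 26015 ± 1334 without a compound at 3 h, and 25489 ± 2100 at 0 h. PSAE-1 averaged 20769 ± 41.1, 21480 ± 1162 and 26264 ± 2838 in that order at 3 h, and 23765 ± 1946 at 0 h. For both genes the untreated groups of 0 h and 3 h overlapped each other, and both treated groups of 3 h lay below them. Neither gene passed limma's test between a compound and untreated seedlings at 3 h. At 12 h 7606596 was lowest for both genes, without overlap with the other groups, but its differences from the other 12 h groups did not pass limma's test. Groups of 2 arrays can lie apart at small differences. PSBY did so between the compounds at 3 h (log2 difference 0.07, limma adjusted p = 0.92). The share of all probe sets whose groups lie apart is not given here.

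Read over the whole group, 4 of the 5 genes differed among the 7 groups in limma's F test, in which 48.9% of the kept probe sets were called. The same 4 genes, LHCB4.1, LHCB4.2, PSAE-1 and PSBY, were lower at 12 h than at 3 h in each of the 3 treatments. The share of all kept probe sets called lower was 12.4% with 7606596, 11.5% with 5929745 and 16.0% without a compound. The median log2 change of the 5 genes was -0.70, -0.58 and -0.80 in that order of treatments, against 0.02, 0.01 and 0.02 over all kept probe sets. In whole seedlings fewer cells of a type and less RNA per cell cannot be told apart.

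Against 0 h the same 4 genes were lower at 12 h with 7606596, with 5929745 and without a compound, where 12.4%, 12.5% and 15.2% of probe sets were called lower. The log2 changes of LHCB4.2 against 0 h were -2.21, -2.11 and -2.16, and those of PSBY -1.35, -1.15 and -1.08, in that order of treatments. Those of LHCB4.1 were -0.66, -0.57 and -0.67, but after quantile normalization they were -0.16, -0.13 and -0.16 and none passed the test (limma adjusted p = 0.181, 0.266 and 0.144). Those of PSAE-1 were -0.84, -0.56 and -0.58, and after quantile normalization the change with 7606596 was -0.40 (adjusted p = 0.00642), while those with 5929745 (-0.13, 0.377) and without a compound (-0.12, 0.414) did not pass. After quantile normalization PSBY changed by -0.96, -0.77 and -0.66 against 0 h and LHCB4.2 by -1.94, -1.82 and -1.87. LHCB4.3 had log2 changes of -0.08, -0.37 and -0.13 against 0 h, none of which passed.

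At 3 h few of the genes differed from 0 h. Without a compound 0 of 5 passed limma's test (12.1% of probe sets did), and 0 had an unadjusted p under 0.05. With 7606596 0 of 5 passed (background 7.66%), and 1 had an unadjusted p under 0.05. With 5929745 1 of 5 was lower (4.13% of probe sets were called lower): PSBY fell by 0.34 ± 0.10 (limma adjusted p = 0.0349). Its change was -0.26 (adjusted p = 0.271) without the second 0 h array, -0.40 (0.073) without the first 5929745 array, -0.29 (0.238) without the second and -0.13 (0.478) after quantile normalization. The large falls of the group lay between 3 h and 12 h.

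The brightest probe sets at 0 h were mostly dimmer at 12 h. The highest signal on an array was 43875 to 44325 at 0 h, 37287 to 42797 at 3 h and 26309 to 35260 at 12 h. The 50 brightest probe sets at 0 h include LHCB4.1, LHCB4.2 and PSBY. The other 47 had a median log2 change between 12 h and 3 h of -0.45 with 7606596, -0.28 with 5929745 and -0.41 without a compound, and 46, 43 and 46 of them were below 0. Only 2, 1 and 2 of the 47 had a lower change than LHCB4.2, and 6, 6 and 6 a lower one than PSBY. LHCB4.1 had 10, 8 and 12 of the 47 below it and PSAE-1 had 12, 15 and 13. The 47 were not sorted by function and can include other photosynthesis genes.

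Quantile normalization gives all arrays the same distribution of signals and so takes this dimming out, together with any fall that bright genes share. Under it LHCB4.2 changed by -1.90, -1.86 and -1.84 between 12 h and 3 h with 7606596, with 5929745 and without a compound, and PSBY by -0.87, -0.64 and -0.79. LHCB4.1 then changed by -0.34, -0.35 and -0.38 and still passed the test (limma adjusted p = 0.00612, 0.0047 and 0.00181). PSAE-1 changed by -0.38 (0.00952) with 7606596 and by -0.35 (0.0141) without a compound, but its change of -0.18 with 5929745 did not pass (0.221). The change of LHCB4.2 moved little with the scaling, while those of LHCB4.1 and PSAE-1 were over 1.5 times smaller under it.

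**Figure D3:**
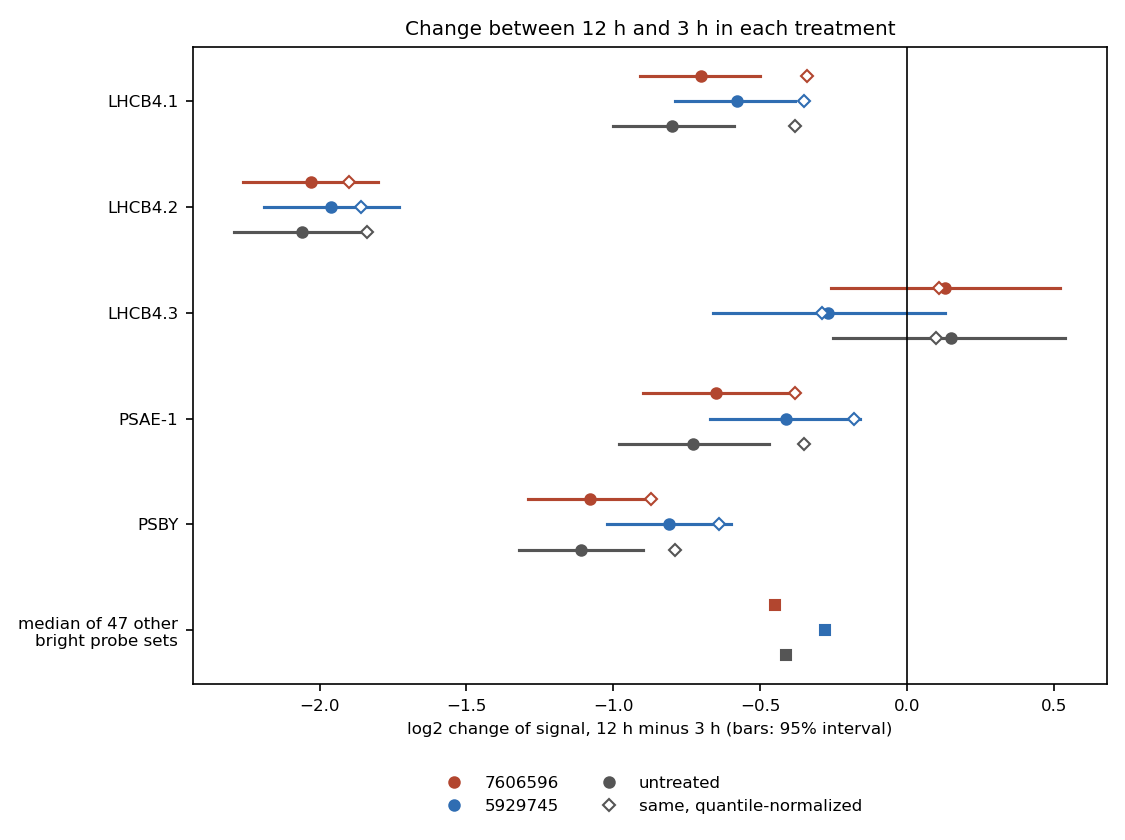
Log2 change of signal between 12 h and 3 h for the 5 genes in each treatment, with 95% intervals from limma (filled circles and bars) and the change after quantile normalization (open diamonds); squares are the median change of the 47 other brightest probe sets. LHCB4.2 lies near -2 in all treatments with either scaling, whereas the diamonds of LHCB4.1 lie between -0.38 and -0.34.

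None of the 5 genes passed the test against untreated seedlings for either compound at either time. The counts were 0 of 5 with 7606596 at 3 h, where 3.09% of kept probe sets were called higher and 1.93% lower in limma, and 0 of 5 with 7606596 at 12 h (1.14% higher and 0.402% lower). They were 0 of 5 with 5929745 at 3 h (0.773% higher and 0.377% lower) and 0 of 5 with 5929745 at 12 h (0.829% higher and 0.572% lower). At an unadjusted p under 0.05 the counts were 2, 2, 2 and 0. Both compounds were compared with the same untreated arrays, and these carry the other poly-A control level, whose part in the values was not tested.

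The low unadjusted p-values belong to the 2 photosystem subunits. PSBY averaged 21003 ± 193 signal units with 7606596 at 3 h, against 26015 ± 1334 without a compound (SD, n = 2 each), and the log2 difference was -0.31 (95% interval -0.52 to -0.10, limma adjusted p = 0.083). With 5929745 at 3 h its difference was -0.37 (-0.58 to -0.16, adjusted p = 0.072). At 12 h the difference of PSBY was -0.28 with 7606596 (-0.49 to -0.07, adjusted p = 0.199) and -0.07 with 5929745 (-0.28 to 0.13, 0.779). PSAE-1 averaged 20769 ± 41.1 with 7606596 at 3 h, against 26264 ± 2838 without a compound, with a log2 difference of -0.33 (-0.59 to -0.08, limma adjusted p = 0.117). Its other differences were -0.29 with 5929745 at 3 h (adjusted p = 0.247), -0.26 with 7606596 at 12 h (0.354) and 0.02 with 5929745 at 12 h (0.952).

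LHCB4.1 differed by -0.09 and 0.01 with 7606596 at 3 h and 12 h, and by -0.11 and 0.10 with 5929745. LHCB4.2 differed by -0.09 and -0.06 with 7606596 and by -0.06 and 0.04 with 5929745. The 95% intervals of these 2 genes lay between -0.32 and 0.31 in all 4 comparisons, so larger differences were not seen in either direction. LHCB4.3 differed by 0.07, 0.05, 0.17 and -0.25 in the order 7606596 at 3 h and 12 h, then 5929745 at 3 h and 12 h, with wider intervals that reached -0.64 and 0.56.

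**Figure D4:**
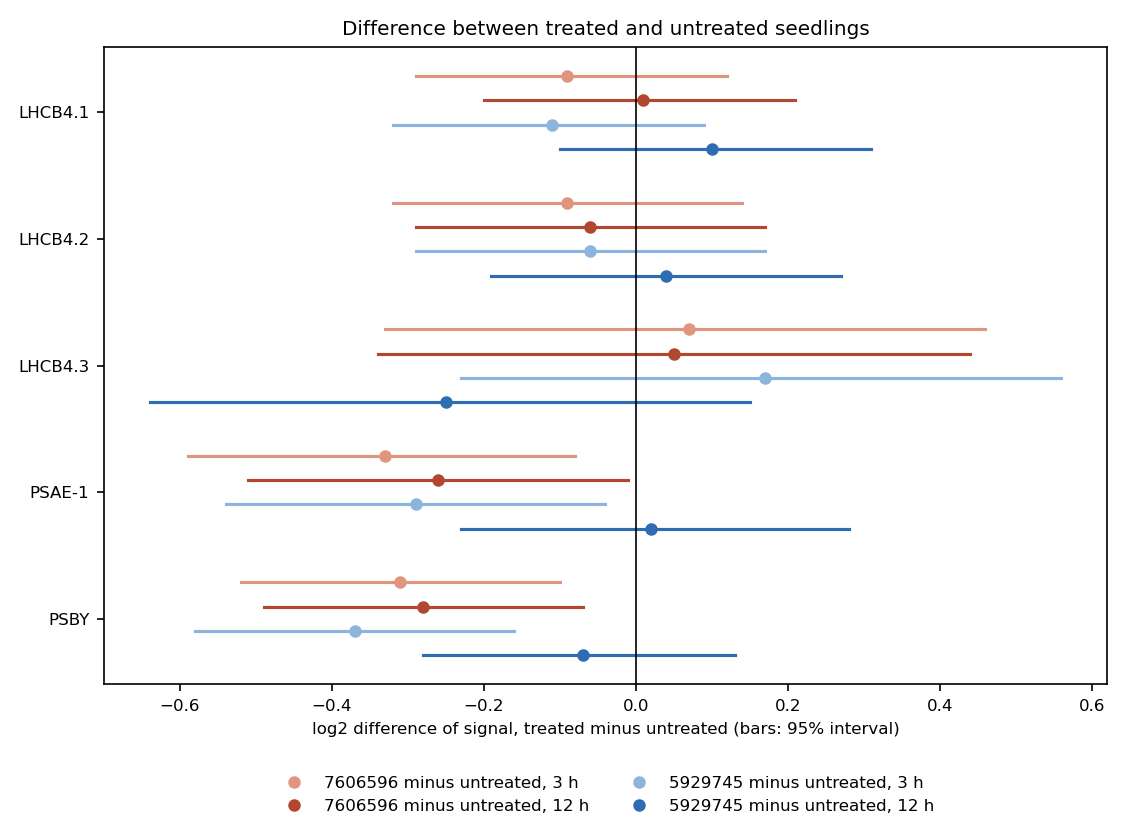
Log2 difference of signal between treated and untreated seedlings for the 5 genes, with 95% intervals from limma, for both compounds at 3 h and 12 h. The intervals of LHCB4.1 and LHCB4.2 all include 0, and those of PSBY and PSAE-1 lie below 0 except with 5929745 at 12 h; no difference passed the adjusted test.

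Compared with each other at the same dose and hours, the compounds gave 0 of 5 calls at 3 h (background 0.917%) and 0 of 5 at 12 h (0.848%) in limma, with 0 and 1 at an unadjusted p under 0.05. The 1 is PSAE-1, which averaged 13243 ± 786 with 7606596 at 12 h, against 16142 ± 1710 with 5929745 (SD, n = 2 each), a log2 difference of -0.28 (95% interval -0.53 to -0.03, adjusted p = 0.517). PSBY averaged 9946 ± 315 with 7606596 at 12 h and 11444 ± 4.31 with 5929745, a log2 difference of -0.20 (-0.41 to 0.01, adjusted p = 0.627). LHCB4.1 and LHCB4.2 each differed by -0.10 at 12 h, with intervals of -0.30 to 0.11 and -0.33 to 0.13. LHCB4.3 went the other way, with 193 and 208 signal units with 7606596 at 12 h and 159 and 162 with 5929745, which do not overlap, and a log2 difference of 0.29 (-0.10 to 0.69, adjusted p = 0.765). These intervals do not show that the compounds act alike.

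An interaction term asked whether the fall to 12 h differed between treated and untreated seedlings. For 7606596 0 of 5 genes passed (background 0.132%) and 0 had an unadjusted p under 0.05. For 5929745 0 of 5 passed (0.113%) and 1 had an unadjusted p under 0.05, PSBY, whose interaction was 0.30 on the log2 scale (95% interval 0.00 to 0.59, limma adjusted p = 0.433). The interaction of LHCB4.2 was 0.03 (-0.29 to 0.35) for 7606596 and 0.10 (-0.22 to 0.43) for 5929745.

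Other genes of the pathway were counted from lists by locus, of which the annotation names few on the array. Of 21 light-harvesting genes it names 3, the LHCB4 genes themselves. Of 12 nuclear photosystem I genes it names 2, PSAE-1 and PSAN, and of 11 nuclear photosystem II genes 2, PSBY and PSBW. None of 12 listed regulators was named. PSAN, the subunit on the lumenal side where plastocyanin docks, fell between 12 h and 3 h, by log2 changes of -0.99 with 7606596, -0.73 with 5929745 and -0.86 without a compound (limma adjusted p = 4.87e-07, 1.81e-05 and 2.08e-06). PSBW, a small photosystem II subunit, fell too, with -1.03, -0.82 and -0.69 in that order (4.26e-07, 8.1e-06 and 3.7e-05). With these 2 genes all 4 named nuclear subunits of the photosystems were lower at 12 h in each treatment. Over all kept probe sets 12.4%, 11.5% and 16.0% were called lower with 7606596, with 5929745 and without a compound. The call of PSAE-1 with 5929745 was lost under some other settings, as given above.

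The plastid genome encodes the photosystem cores, and all 20 listed core genes were measured. Between 12 h and 3 h 3 of 20 fell and 0 rose with 7606596, 9 fell and 0 rose with 5929745, and 5 fell and 1 rose without a compound. Over all kept probe sets 12.4%, 11.5% and 16.0% fell in that order, so 3 of 20 is close to the general share. The medians of the 20 log2 changes were -0.17, -0.32 and -0.25, against 0.02, 0.01 and 0.02 over all kept probe sets. With 7606596 at 3 h 6 of the 20 were higher and 1 lower than in untreated seedlings, where 3.09% of all kept probe sets were higher and 1.93% lower. The counts were 5 higher and 1 lower with 7606596 at 12 h (1.14% and 0.402%). They were 5 higher and 1 lower with 5929745 at 3 h (0.773% and 0.377%), and 1 higher and 2 lower with 5929745 at 12 h (0.829% and 0.572%). The medians of these differences were 0.08 and 0.14 with 7606596 at 3 h and 12 h, and 0.14 and -0.06 with 5929745. The nuclear genes of the same complexes had 0 calls in these 4 comparisons, and whether they differ from the plastid genes was not tested. Each of the 4 comparisons crosses the difference in poly-A controls given above. The 25S rRNA signal differed along the same line. It was 184 to 277 where the dap control was high (4 arrays) and 290 to 850 elsewhere (10 arrays). What part these control differences have in the plastid counts was not tested.

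Of 9 listed clock genes only GI, whose protein GIGANTEA acts in the plant clock, was named. Its log2 change at 3 h against 0 h was 1.61 with 7606596, 1.93 with 5929745 and 1.72 without a compound (limma adjusted p = 1.83e-06, 2.12e-07 and 1.32e-06). At 12 h against 3 h it was -0.91, -1.23 and -1.46 in that order (0.000255, 1.18e-05 and 1.16e-06), so GI had its highest level at 3 h in each treatment. The named green-shoot markers moved with the group, but PSAN among them is the photosystem I gene counted above, so only RCA stands apart. The annotation names 2 of 5 of them, RCA, which activates Rubisco, and PSAN, and their summed signal was 57353 to 60199 at 0 h, 46311 to 56227 at 3 h and 29646 to 33886 at 12 h. RCA fell between 12 h and 3 h, with log2 changes of -0.70, -0.45 and -0.58 with 7606596, with 5929745 and without a compound (limma adjusted p = 3.16e-05, 0.00219 and 0.000169). RCA is a bright probe set, with 34073 and 36165 signal units at 0 h. The 47 bright probe sets described above had median changes of -0.45, -0.28 and -0.41 in the same order. The part of this dimming in the falls of RCA, PSAN and PSBW was not tested.

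Markers of other tissues did not all move the same way. The 2 of 8 root markers named, PYK10 and EXPA7, summed to 13506 to 20421 at 0 h, 11093 to 15402 at 3 h and 11646 to 15980 at 12 h, which overlap, but PYK10 makes up nearly all of this sum. EXPA7, with 43.5 to 123 signal units, fell between 12 h and 3 h with 7606596 (log2 change -0.81, limma adjusted p = 0.0307) and with 5929745 (-0.84, 0.0277), and its change without a compound was -0.17 (0.659). PYK10 had changes of -0.06, 0.11 and 0.20 with 7606596, with 5929745 and without a compound, none of which passed.

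The 1 of 2 guard-cell markers named, FAMA, had 271 to 317 at 0 h, 207 to 299 at 3 h and 328 to 412 at 12 h. It rose between 12 h and 3 h with 5929745 (log2 change 0.60, limma adjusted p = 0.0146), and its changes with 7606596 (0.46, 0.0566) and without a compound (0.31, 0.174) did not pass. Of 4 genes listed as seed markers 1 was named, LEA4-5, which is not read here as a measure of seed tissue. It had 163 to 241 at 0 h. The 3 h arrays read 215 to 245 with 7606596, 59.7 to 80.3 with 5929745 and 34.5 to 58.3 without a compound, and at 12 h 158 to 237, 40.9 to 63.2 and 54.7 to 68.4 in that order. LEA4-5 was higher with 7606596 than in untreated seedlings at 3 h (log2 difference 2.0, limma adjusted p = 0.000122) and at 12 h (1.44, 0.00775), and lower in untreated seedlings at 3 h than at 0 h (-1.81, 0.000229). No named marker was at 0 on any array. The part of tissue makeup in the falls of the photosystem genes was not tested.

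Across the 7 group means of log2 signal, LHCB4.1 and LHCB4.2 correlated at 0.989, PSAE-1 and PSBY at 0.982 and LHCB4.2 and PSBY at 0.973. LHCB4.3 correlated with the other 4 genes at 0.006 to 0.196. These values describe 7 points that share arrays and mostly the step between 3 h and 12 h. Among 5682 other named probe sets whose group means spanned at least 0.5 on the log2 scale, the most alike to LHCB4.2 were AT1G51400 (r = 0.9994), AT5G35970 (0.9994) and AT3G12350 (0.9991), and 225 reached 0.95.

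For LHCB4.1 the most alike were AT1G66100 (0.9957), AT3G10720 (0.9951) and AT1G52070 (0.9944), and 207 reached 0.95. For PSBY they were AT5G02280 (0.995), AT3G06470 (0.993) and TROL (0.9929), a thylakoid protein that anchors ferredoxin-NADP+ reductase, with 156 at 0.95 or above. For PSAE-1 they were ACT11 (0.9872), an actin, AT2G21300 (0.9867) and AT1G31710 (0.9858), with 59 at 0.95 or above. LHCB4.3 had no probe set at 0.95, and its most alike were AT2G14110 (0.8934), AT1G72460 (0.8916) and AT5G11780 (0.8909).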

How the data were processed

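The authors deposited 1 table of MAS5 signal intensities on a linear scale (MAS5 per the submitters' processing notes), in which the central 96% of each array averages 500.0 to 500.1. The 64 control probe sets of the 22810 in the table did not enter the fits. The intensities were taken as log2(signal + 16), and the filter kept probe sets whose mean signal reached the 30th percentile (42.27). All 14 arrays entered 1 limma 3.58.1 fit (R 4.3.3, eBayes with trend) with 1 mean per group, two-sided tests, Benjamini-Hochberg adjustment over the 15922 kept probe sets and calls at an adjusted p under 0.05. The script was tested on simulated data. The text names all 5 genes, listed pathway genes that the annotation names, and the 3 probe sets most alike to each gene by Pearson's r. Genes and lists were chosen with earlier results of these data known. Of the probe sets that are no controls, 8730 are unnamed here and 503 carry several genes. Sequences and coordinates were not used here.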

Additional observations from a re-analysis of the deposited data

How the results depend on the processing

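Calls were recomputed with other offsets, filters and variance models, quantile normalization, a replicate block and each array left out. Of 1785 values of the 5 genes under these settings 16 lost a call, 0 gained one and 0 called values changed sign. Only the 25 of 85 values called in the main fit could lose a call. Of these 25, 7 lost it under at least 1 setting. After quantile normalization the genes called against 0 h were 2 in place of 4 for untreated seedlings at 12 h, 2 in place of 4 for 5929745 at 12 h, 3 in place of 4 for 7606596 at 12 h and 0 in place of 1 for 5929745 at 3 h. Between 12 h and 3 h they were 3 in place of 4 with 5929745. For 5929745 at 3 h against 0 h the count was also 0 with no filter and with no variance trend, and between 0 and 1 with 1 array left out. With the untreated arrays left out the ratios of LHCB4.2 over LHCB4.1, LHCB4.2 over LHCB4.3 and LHCB4.1 over LHCB4.3 changed by -1.35, -1.92 and -0.57, and 36 arrangements allow no p under 0.0556. With 1 array left out they ran between -1.36 and -1.28, -2.10 and -1.93, and -0.82 and -0.57. The causes of these shifts were not tested. Replicate numbers did not pair the arrays: 1 of 21 correlations of deviations was over 0.1. The replicate block moved no count of called genes: 4 of 5 were lower at 12 h than at 3 h with it in each treatment, and the ratios kept changes of -1.32, -2.02 and -0.70. With 2 arrays a group the number of arrays limits precision.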
